A study of Mus musculus with 2 samples.

Results

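The complement system was examined in mouse ovary through 9 genes, picked by symbol with earlier results of these data known. The genes were C1ra, C1s1, C2, C3, C4b, Cfb, Cfi, Serping1 and Cd55. They are 9 of 43346 mouse genes measured. Ovaries were taken from C57BL/6J females aged 8 weeks that were littermates, and no treatment or altered allele is named. Their polyadenylated RNA, freed of ribosomal RNA and longer than 200 nucleotides, was sequenced in 2 libraries called replicate 2 and replicate 1. The labels put both libraries in 1 group and give them the same donor record, so the spread between them may be partly technical. No comparison of conditions was possible, and the values below describe levels in the ovary and how far the libraries differed.

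Complement is a cascade of blood and tissue proteins that marks microbes, immune complexes and dying cells for removal. The classical route starts when C1q binds a target and switches on the proteases C1r and C1s, which cut C4 and C2; the alternative route uses C3 and factor B. Both build a C3 convertase, an enzyme that cuts C3 and is held in check by inhibitors in plasma and on cell surfaces. Plasma complement is made mostly by the liver, and many tissues make some of it locally.

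All 9 genes were detected at 1 TPM or more in both libraries. Most protein-coding genes had a mean above that level, so detection, here and in the lists below, is common. C7, a complement gene outside the 9, had a mean of 1.02 TPM, with 36.7% of protein-coding genes below it. TPM is corrected for transcript length and library size, so levels of different genes can be set side by side. Serping1 and C3 stood above the other 7 genes and together held 72.2% of the summed TPM of the 9 genes in replicate 2 and 68.9% in replicate 1. The summed level was 718 TPM in replicate 2 and 753 TPM in replicate 1. By role, the C1 proteases summed to 90.2 TPM in replicate 2 and 117 TPM in replicate 1, the 4 convertase components to 326 and 287 TPM, and the 3 regulators to 301 and 349 TPM in the same order of libraries. The median of the 9 genes was 34.0 TPM.

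**Figure D1:**
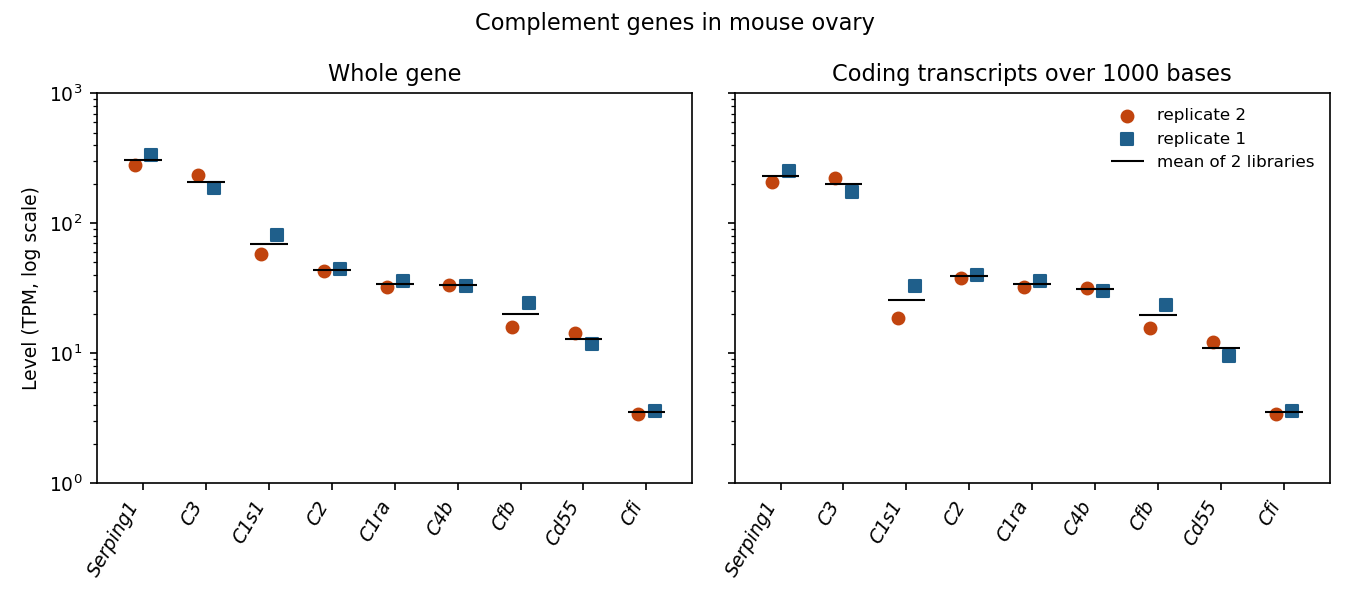
Level of each gene in TPM (log axis) in replicate 2 (circles) and replicate 1 (squares), with the mean of both as a line, for the whole gene at left and for its coding transcripts over 1000 bases at right. Serping1 and C3 lie highest and Cfi lowest in both panels. By mean, C1s1 lies above C2, C1ra and C4b at left, at 69.5 TPM, and below them at right, at 25.7 TPM. In replicate 1 at right, however, C1s1 lies at 32.9 TPM, above C4b at 30.3 TPM.

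By whole-gene mean the order was Serping1, C3, C1s1, C2, C1ra, C4b, Cfb, Cd55 and Cfi. Neighbours in that order did not overlap in their 2 values, except C1ra and C4b. Serping1 was 83.4 times as high as Cfi in replicate 2 and 93.0 times in replicate 1.

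Read counts tell how far the libraries themselves differed. The genes' estimated counts, which sum to 34930872 read pairs in replicate 2 and 41124064 in replicate 1 over all genes, were compared with a two-sided exact binomial test at a Benjamini-Hochberg adjusted p of 0.05, over the 15939 genes whose mean count reached 20. Such a test compares the reads of these 2 libraries and not conditions, and it covers counting error only, as do all counting errors below. Of the 9 genes, 7 passed the test, against 56.1% of all genes tested. C3, C4b and Cd55 were higher in replicate 2 than in replicate 1 (29.1% of all genes were), although all 3 had ratios below 0 when the libraries were scaled by spike-in RNA, a scaling that moved the median of all genes to −0.44 on the log2 scale. C1ra, C1s1, Cfb and Serping1 were lower in replicate 2 than in replicate 1 (27.0% of all genes were), also under spike-in scaling. With that scaling 0 of the 9 were higher and 8 were lower by the exact binomial test, against 7.16% and 71.7% of all genes. None of the 9 differed over 2-fold, against 3.99% of all genes tested, except that C1s1 passed 2-fold under spike-in scaling. The median log2 ratio of the 9 was −0.045, beside −0.006 over all genes, and the typical absolute log2 ratio over all genes, the median, was 0.23.

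**Figure D2:**
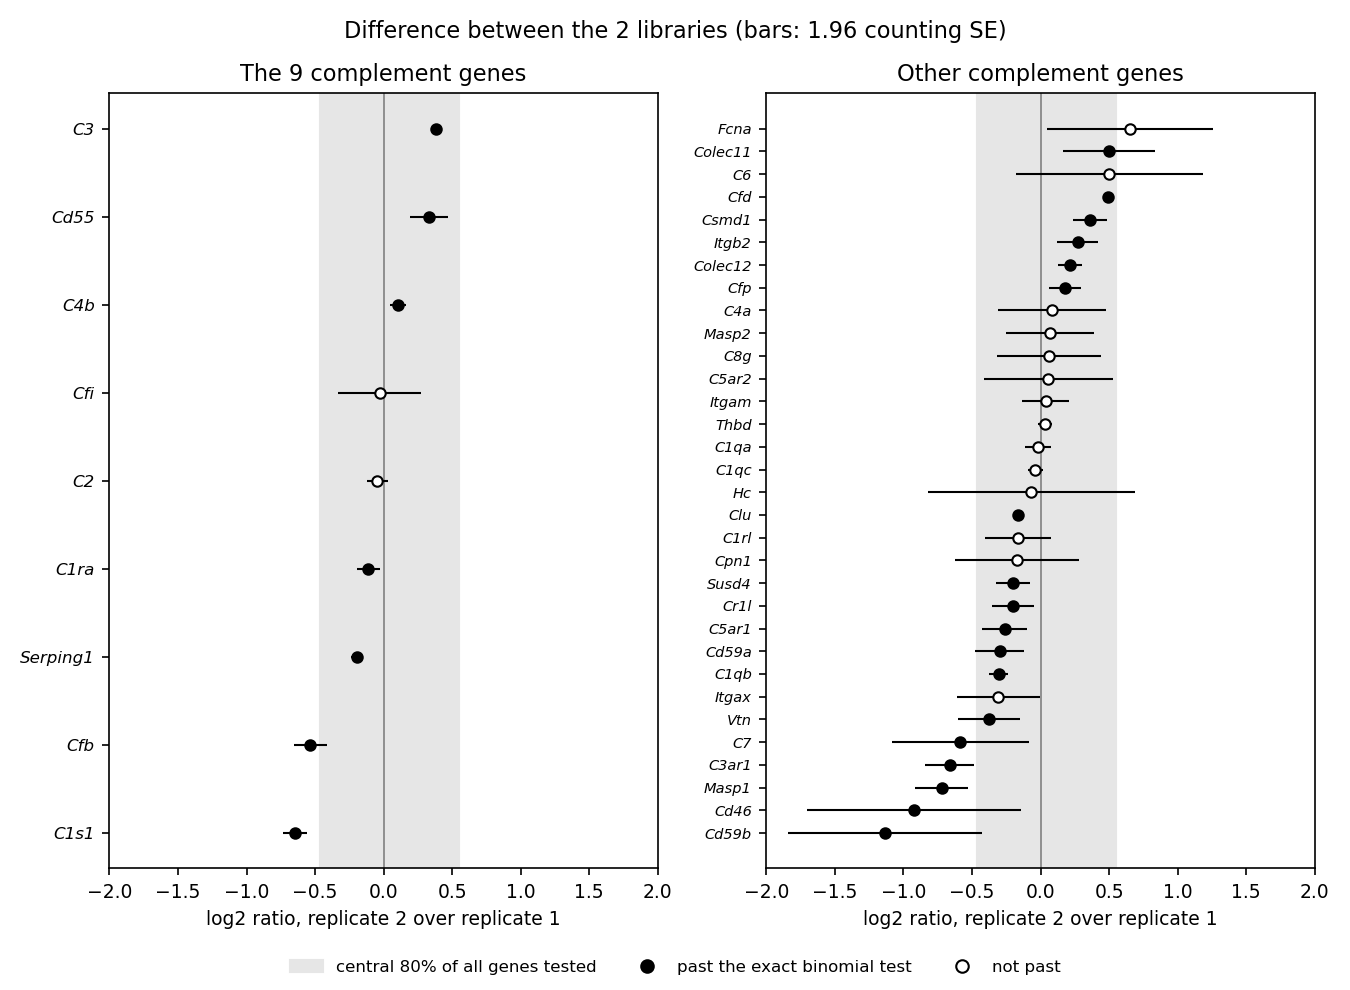
Log2 ratio of replicate 2 over replicate 1 for the 9 genes (left) and for other complement genes with enough counts (right), with 95% counting intervals as bars; filled points passed the exact binomial test and the grey band spans −0.46 to 0.55, within which most of all genes tested lie. C3, Cd55 and C4b lie right of 0 here and left of it under spike-in scaling, and C1s1 and Cfb lie left of the band.

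The proteases C1r and C1s form the engine of the C1 complex: C1r activates itself and then C1s, which cuts C4 and C2. C1ra (ENSMUSG00000055172) lies on the plus strand of chromosome 6, at 124512405 to 124523443 of mm10 (GRCm38). C1s1 (ENSMUSG00000038521) lies next to it on the minus strand, at 124530345 to 124542359, with 6901 bases between their facing 3′ ends. Promoter sequences of these neighbours and of C3 are shown because the genes are the members whose annotated starts the RefSeq table (GRCm38.p6) holds and in which a searched motif was found; each runs 5′ to 3′ on the gene's strand over 300 bases, mostly before the start.
C1ra, chr6:124512371-124512670, plus strand: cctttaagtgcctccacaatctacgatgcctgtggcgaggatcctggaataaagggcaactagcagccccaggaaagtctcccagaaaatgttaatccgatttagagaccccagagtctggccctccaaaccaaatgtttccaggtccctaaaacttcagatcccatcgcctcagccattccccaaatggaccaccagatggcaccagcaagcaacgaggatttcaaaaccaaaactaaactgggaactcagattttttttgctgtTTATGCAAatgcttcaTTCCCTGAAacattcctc
C1s1, chr6:124542310-124542609, minus strand: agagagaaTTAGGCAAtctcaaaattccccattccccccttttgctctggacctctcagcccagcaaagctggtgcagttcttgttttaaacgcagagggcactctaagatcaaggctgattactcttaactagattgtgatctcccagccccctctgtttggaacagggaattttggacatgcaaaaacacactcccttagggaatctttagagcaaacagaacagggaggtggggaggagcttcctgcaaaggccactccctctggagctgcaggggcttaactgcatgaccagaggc
C3, chr17:57228087-57228386, minus strand: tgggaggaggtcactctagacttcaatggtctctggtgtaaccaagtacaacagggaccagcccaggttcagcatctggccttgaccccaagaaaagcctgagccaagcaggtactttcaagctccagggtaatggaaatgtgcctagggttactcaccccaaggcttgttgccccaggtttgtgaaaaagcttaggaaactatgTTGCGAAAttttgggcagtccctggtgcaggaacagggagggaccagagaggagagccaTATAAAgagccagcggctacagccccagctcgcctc
Capitals mark matches to 6 motifs searched on both strands: TATAAA (the TATA box), CCAAT, TTCNNNGAA (a pattern read by STAT factors), GAAA and GAAA with any 2 bases between (read by interferon regulatory factors), GGG and TTTCC with any 2 bases between (read by NF-kappaB) and TTGCNNAA (read by C/EBP factors).

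With the start base counted as 1, C3 held TTGCNNAA from −45 to −38 and TATAAA from 15 to 20, after its annotated start. C1s1 held TTGCNNAA on the opposite strand from −242 to −235. C1ra held TTGCNNAA on the opposite strand from 17 to 24 and TTCNNNGAA from 33 to 41, counted from a start that is base 217 of its GENCODE M21 transcript. The promoter of Cd55, at chr1:130462695-130462994 on the minus strand and 63.3% G and C, held none of the 6 motifs, nor did a further annotated start of C1s1. Over all 32851 promoters of the table, TTGCNNAA occurred in 10.8%, TATAAA in 13.6%, TTCNNNGAA in 8.30%, CCAAT in 37.4%, the interferon regulatory factor motif in 3.44% and the NF-kappaB motif in 1.63%. The matches are matches of letters only. C2, C4b, Cfb, Cfi and Serping1 were not in the table.

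C1ra had 2008 counts in replicate 2 and 2672 in replicate 1, which gave 32.1 and 35.8 TPM (mean 34.0 ± 2.64, SD, n = 2) and rank 4577 of 21474 protein-coding genes. The libraries were close, with a log2 ratio of −0.11 ± 0.043 (counting SE; adjusted p = 0.0164, exact binomial test). Only 1 transcript of C1ra was measured. Its near copy C1rb had 0.20 TPM in replicate 2 and 0.09 TPM in replicate 1. C1ra thus took 99.4% and 99.7% of the summed TPM of that pair, although 42.1% of its 76-base windows, the length of a read, also occur in C1rb or in the gene Gm18840, so the split between copies is uncertain.

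C1s1 had 1570 counts in replicate 2 and 3026 in replicate 1. That gave 58.15 and 80.9 TPM (mean 69.5 ± 16.1, SD, n = 2), the highest of the 9 genes after Serping1 and C3. Replicate 2 was lower, with a log2 ratio of −0.65 ± 0.045 (counting SE; adjusted p = 9.4e-48, exact binomial test). This was the largest absolute log2 ratio of the 9, and 87.6% of all genes tested had a smaller one.

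Short transcripts held most of the whole-gene TPM of C1s1. C1s1-201, a retained intron transcript of 523 bases, took 42.2% of the gene's TPM in replicate 2 and 36.9% in replicate 1 with 192 and 261 counts. C1s1-204, a coding transcript of 2906 bases, took 31.4% and 39.9% of the TPM with 1212 and 2554 counts. TPM divides by effective length, so in replicate 2 the 192 counts of C1s1-201 gave 24.6 TPM and the 1212 counts of C1s1-204 gave 18.25 TPM. Coding transcripts over 1000 bases held 31.99% of the gene's TPM in replicate 2 and 40.65% in replicate 1, but 78.7% and 86.0% of its counts. Counted over them alone, C1s1 had 18.6 TPM in replicate 2 and 32.9 TPM in replicate 1 (mean 25.7 ± 10.1, SD, n = 2). It then lay below C1ra in both libraries, whereas by whole gene it lay above, at 1.81 times C1ra in replicate 2 and 2.26 times in replicate 1. The ratio of C1s1 to C1ra was 0.58 in replicate 2 and 0.92 in replicate 1 over those transcripts, and the log2 ratio between libraries was −0.78 ± 0.05. The near copy C1s2 had 0.21 TPM in replicate 2 and 0.09 TPM in replicate 1, and 14.55% of the windows of C1s1-204 are shared with it.

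**Figure D3:**
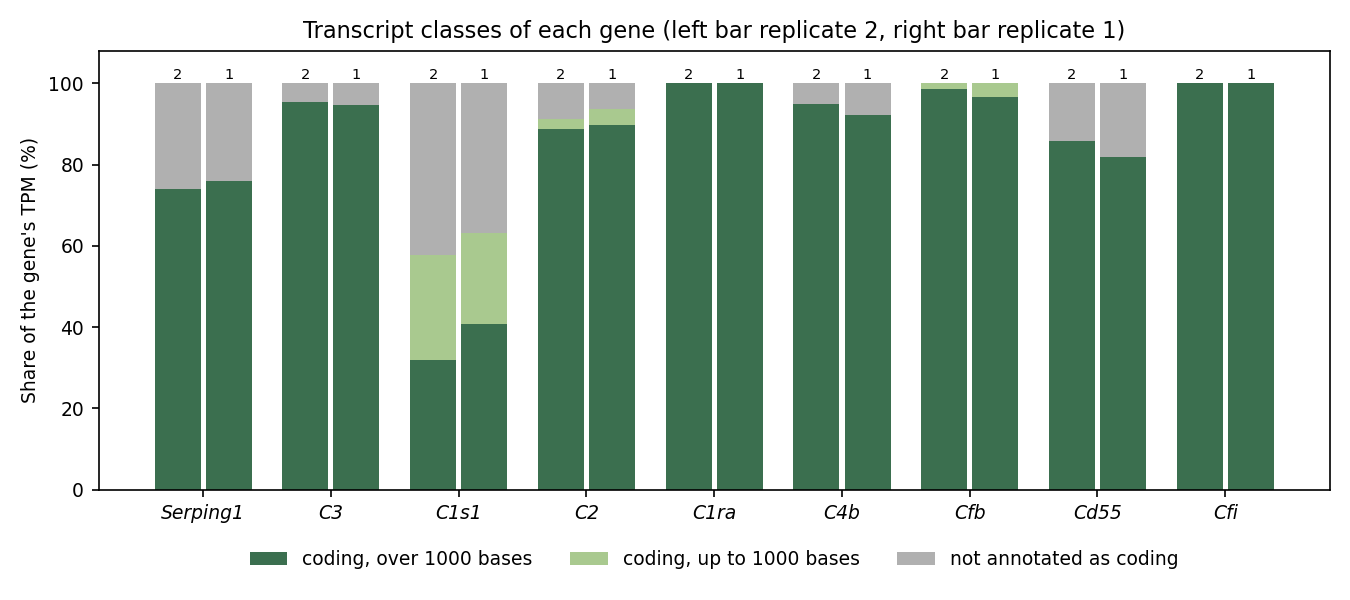
Share of each gene's TPM (%) held by coding transcripts over 1000 bases, coding transcripts up to 1000 bases and transcripts not annotated as coding, with replicate 2 as the left bar and replicate 1 as the right bar of each gene. C1s1 had 31.99% and 40.65% in the long coding class, and each of the other genes had a larger share there in both libraries.

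The components of the C3 convertases came next: C4 and C2 form the convertase of the classical route, and C3 and factor B that of the alternative route. C3 itself is the protein on which all routes converge. C3 (ENSMUSG00000024164, chromosome 17, 57203970 to 57228136, minus strand) had 27175 counts in replicate 2 and 25609 in replicate 1, or 234 and 185 TPM (mean 209.8 ± 34.5, SD, n = 2; rank 755 of the protein-coding genes). Replicate 2 was higher, with a log2 ratio of 0.385 ± 0.013 (counting SE; adjusted p = 5.5e-204, exact binomial test), but the ratio was −0.05 under spike-in scaling. Its full-length transcript C3-201, of 5136 bases in 41 exons, held 95.3% of the gene's TPM in replicate 2 and 94.75% in replicate 1. No 76-base window of C3 occurs in another gene. The protein-coding genes nearest to C3 in level over the 2 libraries, by Euclidean distance on log2(TPM + 1), were Spns1 (236 TPM in replicate 2, 183 TPM in replicate 1, distance 0.0241), Coq2 (226 and 181 TPM, 0.061) and Ip6k1 (232 and 194 TPM, 0.0634). With 2 libraries of 1 tissue, this likeness is no more than a similar level.

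C4b (ENSMUSG00000073418), which encodes C4, lies at 34728380 to 34743882 on the minus strand of chromosome 17. It had 4065 counts in replicate 2 and 4652 in replicate 1, or 33.5 and 32.8 TPM (mean 33.2 ± 0.481, SD, n = 2). Replicate 2 was slightly higher by counts, with a log2 ratio of 0.105 ± 0.031 (counting SE; adjusted p = 0.00183, exact binomial test), while the ratio was −0.33 under spike-in scaling and 0.04 when scaled by total counts, where it did not pass (adjusted p = 0.259, exact binomial test). C4a, the sex-limited copy of C4, had 4.90 TPM in replicate 2 and 3.84 TPM in replicate 1, with 94 and 109 counts. C4b thus held 87.2% and 89.5% of the TPM of the pair but 97.7% of its counts in both libraries. In C4b-201, which held 94.8% and 92.3% of the gene's TPM, 23.2% of windows are shared with C4a, so the level of C4a in particular is uncertain.

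C2 (ENSMUSG00000024371, 34862604 to 34898265) and Cfb (ENSMUSG00000090231, 34856374 to 34862518) lie head to tail on the minus strand of chromosome 17, 85 bases apart. They encode related proteases, each the catalytic part of its convertase. C2 had 2295 counts in replicate 2 and 2914 in replicate 1, or 42.5 and 44.8 TPM (mean 43.7 ± 1.61, SD, n = 2). It did not pass the test (log2 ratio −0.045 ± 0.040, counting SE; adjusted p = 0.352, exact binomial test), although it did under total-count scaling, at −0.11 (adjusted p = 0.0138), and under spike-in scaling, at −0.48 (adjusted p = 2.89e-32). Its transcript C2-201, of 2641 bases, held 88.55% of its TPM in replicate 2 and 89.6% in replicate 1.

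Cfb, the gene of factor B, had 893 counts in replicate 2 and 1591 in replicate 1, or 15.9 and 24.4 TPM (mean 20.2 ± 6.00, SD, n = 2). Replicate 2 was lower, with a log2 ratio of −0.53 ± 0.060 (counting SE; adjusted p = 2.07e-18, exact binomial test), a size that 81.8% of all genes tested did not reach. C3 and Cfb, partners in the alternative convertase, therefore differed in opposite directions between the libraries, except under spike-in scaling, where both were below 0. C3 was 14.7 times Cfb in TPM in replicate 2 and 7.60 times in replicate 1.

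The split of Cfb among its transcripts is poorly fixed by the reads. Cfb-206, of 2397 bases, took 66.4% of the gene's TPM in replicate 2 and 71.6% in replicate 1. Cfb-201 was given 32.2% in replicate 2 and 13.05% in replicate 1, while Cfb-202 was given 0% and 11.95%. All 76-base windows of Cfb-201 and 99.85% of those of Cfb-202 occur in other transcripts of the gene. The authors' posterior mean estimates for Cfb-201 were 14.7% and 11.3%, and for Cfb-202 13.6% and 11.5%, so the apparent absence of Cfb-202 from replicate 2 is not seen in them. A gene that spans both loci, Gm20547, shares 55.5% of the windows of C2-201 and 90.3% of those of Cfb-206. It was given 5 counts in replicate 2 and 1 in replicate 1. C2 and Cfb each held 99.4% or more of the counts summed over the gene itself and Gm20547.

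The regulators limit the cascade at successive steps. Serping1 (ENSMUSG00000023224, chromosome 2, 84765387 to 84775444, minus strand) encodes the C1 inhibitor, a serpin that inactivates C1r and C1s. It was the highest of the 9 genes by whole gene, with 9325 counts in replicate 2 and 13151 in replicate 1, or 284 and 334 TPM (mean 309 ± 35.5, SD, n = 2; rank 450 of the protein-coding genes). Replicate 2 was lower, with a log2 ratio of −0.20 ± 0.020 (counting SE; adjusted p = 4.52e-23, exact binomial test), below the median absolute ratio of all genes. Serping1-201, of 1768 bases in 8 exons, held 73.7% of the TPM in replicate 2 and 75.8% in replicate 1, and Serping1-203, a processed transcript of 903 bases in 2 exons, held 26.0% and 24.0%. Over coding transcripts longer than 1000 bases, Serping1 had 209.8 TPM in replicate 2 and 254 TPM in replicate 1, a range that overlaps the 223 and 176 TPM of C3, so which of the 2 genes lies higher depended on the library: C3 in replicate 2 and Serping1 in replicate 1. No window of Serping1 occurs in another gene.

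Cd55 (ENSMUSG00000026399, chromosome 1, 130439027 to 130462744, minus strand) encodes decay-accelerating factor, a membrane protein that takes C3 convertases apart on the cell's own surface. It had 830 counts in replicate 2 and 811 in replicate 1, or 14.2 and 11.65 TPM (mean 12.9 ± 1.82, SD, n = 2). Replicate 2 was higher, with a log2 ratio of 0.33 ± 0.071 (counting SE; adjusted p = 1.13e-05, exact binomial test), but the ratio was −0.10 under spike-in scaling and did not pass there (adjusted p = 0.186, exact binomial test). Cd55-201 held 85.7% of the TPM in replicate 2 and 81.8% in replicate 1, and the retained intron transcript Cd55-205 held 12.6% and 15.8%. The copy Cd55b had 2 counts in replicate 2 and 0 in replicate 1.

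Cfi (ENSMUSG00000058952, chromosome 3, 129835884 to 129875332, plus strand) encodes factor I, the protease that cuts C3b and C4b with the help of cofactors. It was the lowest of the 9 genes, with 156 counts in replicate 2 and 196 in replicate 1, or 3.40 and 3.59 TPM (mean 3.495 ± 0.134, SD, n = 2; rank 11303 of the protein-coding genes). It did not pass the test (log2 ratio −0.03 ± 0.154, counting SE; adjusted p = 0.915, exact binomial test), although it did under spike-in scaling, at −0.46 (adjusted p = 0.00397). Its counts are the fewest of the 9, and its counting error is the widest.

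The share of the largest transcript, taken by the mean of both libraries, was compared with that in all genes. For the 7 genes with several transcripts, the largest transcript's share differed by a median of 2.56 points and by at most 5.32 points, in C1s1. The median over those 9449 genes was 5.34 points. Other transcripts differed more, as replicate 2 minus replicate 1: C1s1-204 by −8.52 points, and Cfb-201 by 19.2 points in the split that the reads fix poorly. In C1s1 the leading transcript was C1s1-201 in replicate 2 and C1s1-204 in replicate 1. The largest transcript held a median of 83.7% of the TPM in the 7 genes and 70.4% over the 9449 genes. Of 38 transcripts of the 9 genes, 7 had 0 counts in both libraries.

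The other 47 complement genes on a list chosen by role give the setting. At 1 TPM or more in both libraries were 28 of them, and their median was 4.37 TPM. Of the 33 with enough counts, 6 were higher in replicate 2, 13 were lower and 14 did not pass the test, with a median log2 ratio of −0.07, whereas under spike-in scaling 1 was higher and 24 were lower. A single gene, Cd59b with 21 counts in replicate 2 and 58 in replicate 1, differed over 2-fold, against 5 genes under spike-in scaling; it was named after its values were seen. That is 19 of 33 called, near the share of 56.1% over all genes.

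Among the recognition molecules, the 3 chains of C1q, which binds antibody and cell debris, were well above the collectins. C1qc had 176 TPM in replicate 2 and 189.5 TPM in replicate 1, C1qb 122 and 158 TPM, and C1qa 80.2 and 85.4 TPM. Of the 3, C1qb was lower in replicate 2 (log2 ratio −0.31), and C1qa and C1qc did not pass; under spike-in scaling all 3 were lower. Colec12, a scavenger receptor of the collectin family, had 25.6 TPM in replicate 2 and 22.8 TPM in replicate 1 and was higher in replicate 2 (log2 ratio 0.21; −0.22 under spike-in scaling). Mannose-binding lectin gene Mbl1, the ficolin gene Fcnb and the terminal gene C9 had 0 counts in both libraries. At 95% confidence, 0 counts allow up to about 3. That limit is 0.0859 CPM (counts scaled to the library total) in replicate 2 and 0.0730 CPM in replicate 1.

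Cfd had the highest mean level of the complement genes on these lists, although in replicate 1 the regulator Clu was higher, at 2671 TPM. Cfd encodes adipsin, or factor D, the protease that cuts factor B, and had 2772 TPM in replicate 2 and 2081 TPM in replicate 1. It was higher in replicate 2 (log2 ratio 0.49), also under spike-in scaling (0.06). The properdin gene Cfp, whose product steadies the alternative convertase, had 34.7 and 31.3 TPM and was higher in replicate 2 (log2 ratio 0.18; −0.26 under spike-in scaling). The mRNAs of the alternative route thus ran from Cfb at a mean of 20.2 TPM to Cfd at 2427 TPM.

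The terminal pathway, whose proteins form the membrane pore, had a median of 0.445 TPM over its 7 genes. They summed to 7.39 TPM in replicate 2 and 7.30 TPM in replicate 1. Of them only C8g, which lay above Cfi at 4.76 and 4.61 TPM, reached 1 TPM in both libraries. Among 14 other regulators, 10 reached that level, and of the 11 tested 1 was higher and 8 were lower in replicate 2, or 0 and 10 under spike-in scaling; over all genes 29.1% were higher and 27.0% lower, or 7.16% and 71.7% under spike-in scaling. Clu (clusterin, a chaperone that also binds the terminal complex) led them with 2150 TPM in replicate 2 and 2671 TPM in replicate 1 and was lower in replicate 2 (log2 ratio −0.165). Thbd (thrombomodulin) had 65.6 and 66.05 TPM and did not pass, while under spike-in scaling it was lower.

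The rodent membrane regulator Cr1l (Crry) had 26.9 TPM in replicate 2 and 27.0 TPM in replicate 1. Over its coding transcripts longer than 1000 bases it had 3.25 and 6.31 TPM, so most of its TPM lay in other transcripts. Those long coding transcripts held 119 of 584 counts in replicate 2 and 272 of 825 in replicate 1. Cd59a, which blocks the pore, had 12.2 and 15.02 TPM. Susd4 had 16.5 and 17.5 TPM, and Vtn (vitronectin) 8.61 and 11.4 TPM. All of these 4 were lower in replicate 2 by counts. Among the 8 receptors, Itgb2, the shared beta chain of the leukocyte integrins, had the highest mean, with 11.95 TPM in replicate 2 and 10.4 TPM in replicate 1, and was higher in replicate 2 (log2 ratio 0.27; −0.16 under spike-in scaling).

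**Figure D4:**
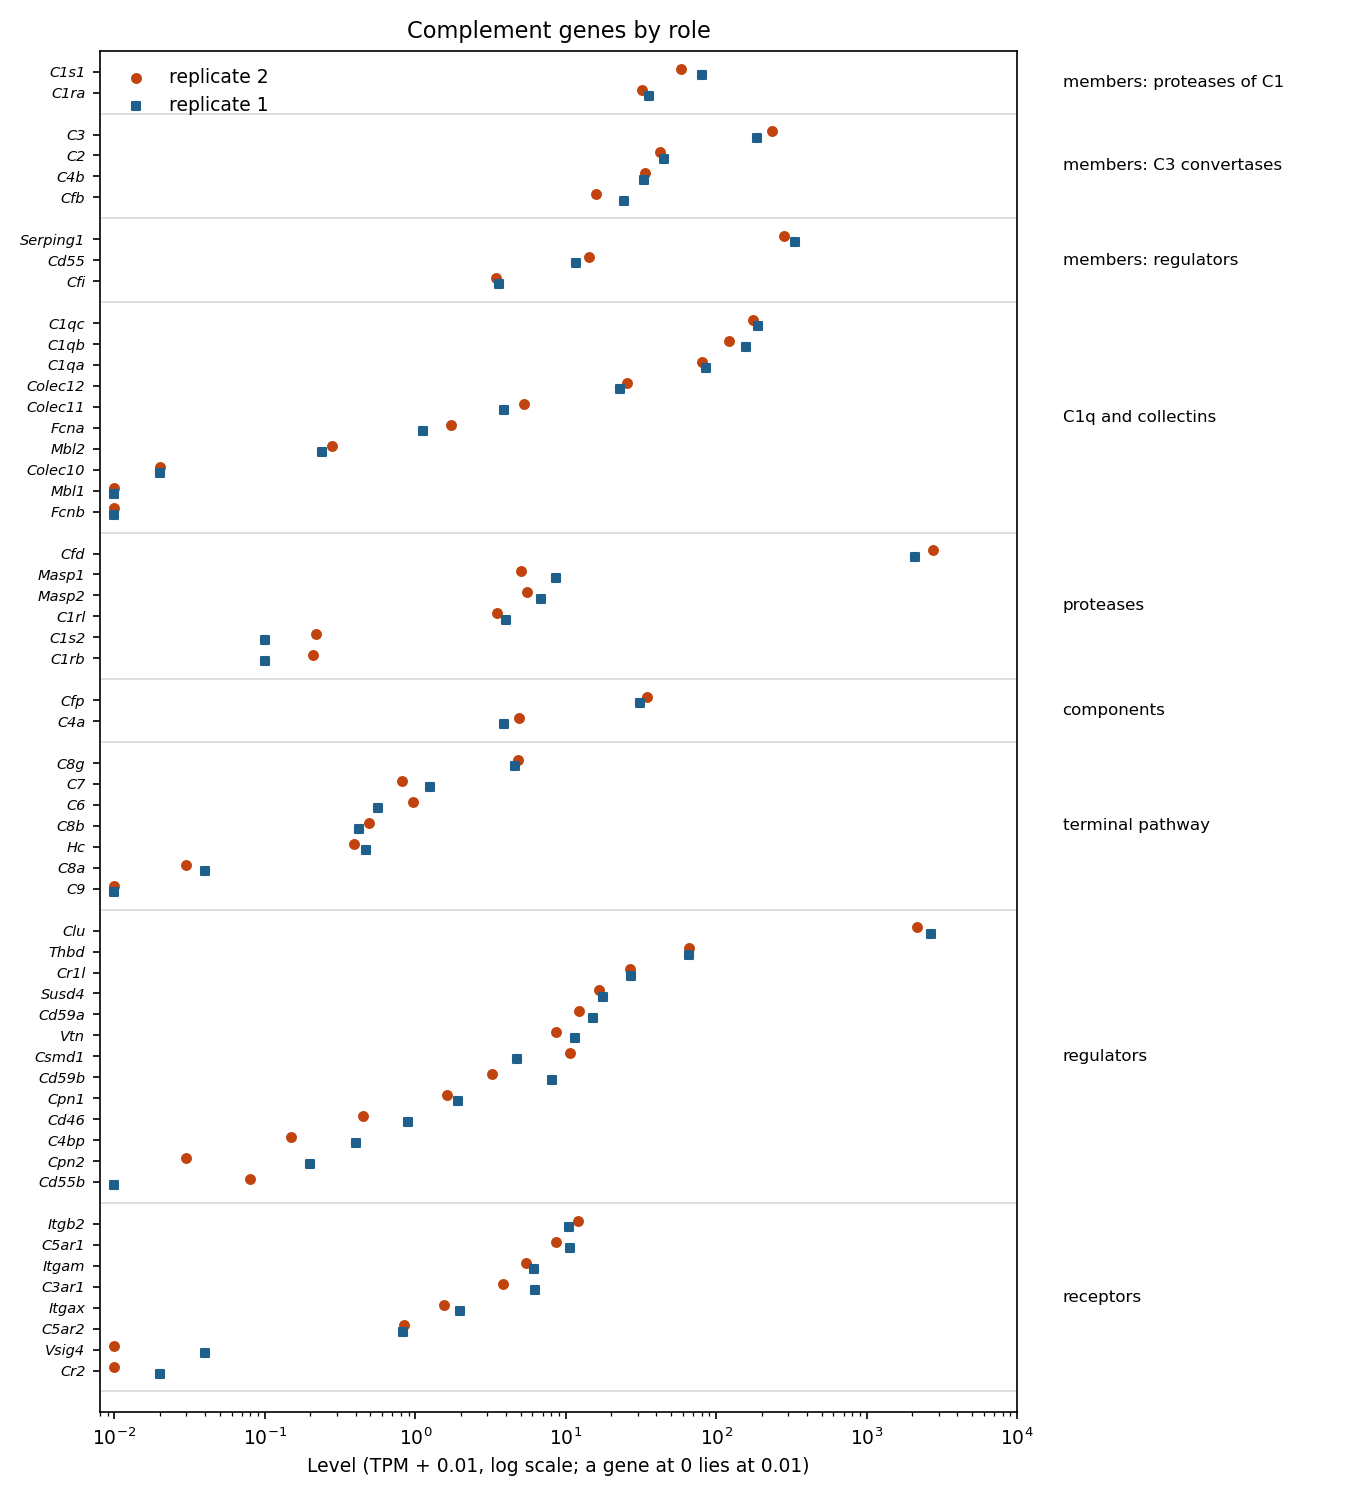
Level of the 9 genes and of other complement genes (TPM + 0.01, log axis) in replicate 2 (circles) and replicate 1 (squares), grouped by role. Cfd and Clu lie highest, and of the terminal pathway C8g, at 4.76 TPM in replicate 2 and 4.61 TPM in replicate 1, lies highest.

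Marker lists of the cells the tissue could hold were set beside these results, and their counts are to be read against all genes tested, of which 29.1% were higher and 27.0% lower in replicate 2, or 7.16% and 71.7% under spike-in scaling. All 9 granulosa markers were detected, with Inha at 6279 TPM in replicate 2 and 7396 TPM in replicate 1, Amh at 334 and 299.6 TPM and Inhbb at 331 and 285 TPM, so the libraries carry the markers of ovary. Of these 9, 3 were higher and 5 lower in replicate 2, or 0 and 9 under spike-in scaling, against 29.1% and 27.0%, or 7.16% and 71.7%, of all genes. All 5 oviduct markers were detected too, led by Ovgp1 (528 and 627 TPM), Foxj1 (137 and 112.0 TPM) and Tmem212 (76.8 and 74.7 TPM), with 1 higher and 2 lower, or 0 and 5 under spike-in scaling. In bulk RNA, fewer cells of a type and less RNA per cell cannot be told apart.

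Hepatocyte markers, of the main source of plasma complement, had a median level of 5.45 TPM and the largest median difference between the libraries of the lists used here. Of 10, 7 were at 1 TPM or more in both, and the list summed to 65.1 TPM in replicate 2 and 140.1 TPM in replicate 1. All 8 with enough counts were lower in replicate 2, 6 of them over 2-fold, with a median log2 ratio of −1.72, and 8 were lower under spike-in scaling as well. Apoa1 led with 43.2 and 61.4 TPM, then Alb with 6.62 and 23.4 TPM and Apoa2 with 2.83 and 19.6 TPM. Adipocyte markers, of which 10 of 10 were detected, summed to 4576 TPM in replicate 2 and 3688 TPM in replicate 1; 7 were higher in replicate 2, 2 were lower and 1 did not pass (median log2 ratio 0.17), while under spike-in scaling 1 was higher and 7 were lower. Cfd is on that list and, at 2772 TPM in replicate 2 and 2081 TPM in replicate 1, made up most of its sum. Next came Car3 (904 and 783 TPM) and Plin4 (196 and 199 TPM). Car3 had 165 TPM in replicate 2 and 214.5 TPM in replicate 1 over coding transcripts longer than 1000 bases.

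Surface epithelium markers, 9 of 9 detected, summed to 1005 TPM in replicate 2 and 741 TPM in replicate 1, and 8 of 9 were higher in replicate 2 (median log2 ratio 0.43), or 4 higher and 4 lower under spike-in scaling, against 29.1% of all genes higher, or 7.16% higher and 71.7% lower under spike-in scaling. Krt19 (418 and 299 TPM), Krt8 (181 and 140 TPM) and Krt18 (117 and 112 TPM) had the highest means of the list. The macrophage list, 11 of 12 detected, summed to 606 and 757 TPM; it shares the C1q genes, and of 11 tested 0 were higher and 4 were lower by the exact binomial test, or 10 lower under spike-in scaling. Lyz2 stood between C1qc and C1qb in that list by mean, with 133.5 TPM in replicate 2 and 213 TPM in replicate 1. Stroma and matrix markers, 10 of 10 detected, summed to 6503 and 7436 TPM, with 5 higher and 4 lower in replicate 2, or 0 and 9 under spike-in scaling, with the highest means in Sparc (3293 and 4380 TPM), Mgp (1624 and 1536 TPM) and Fbln1 (369.7 and 325 TPM). Sparc had 471 TPM in replicate 2 and 524 TPM in replicate 1 over coding transcripts longer than 1000 bases.

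No marker was at 0 counts in both libraries. The 9 complement genes had a median log2 ratio of −0.045, beside −0.006 over all genes. Each marker list also held genes that differed between the libraries by the exact binomial test. The part of any cell type in the complement values was not tested.

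**Figure D5:**
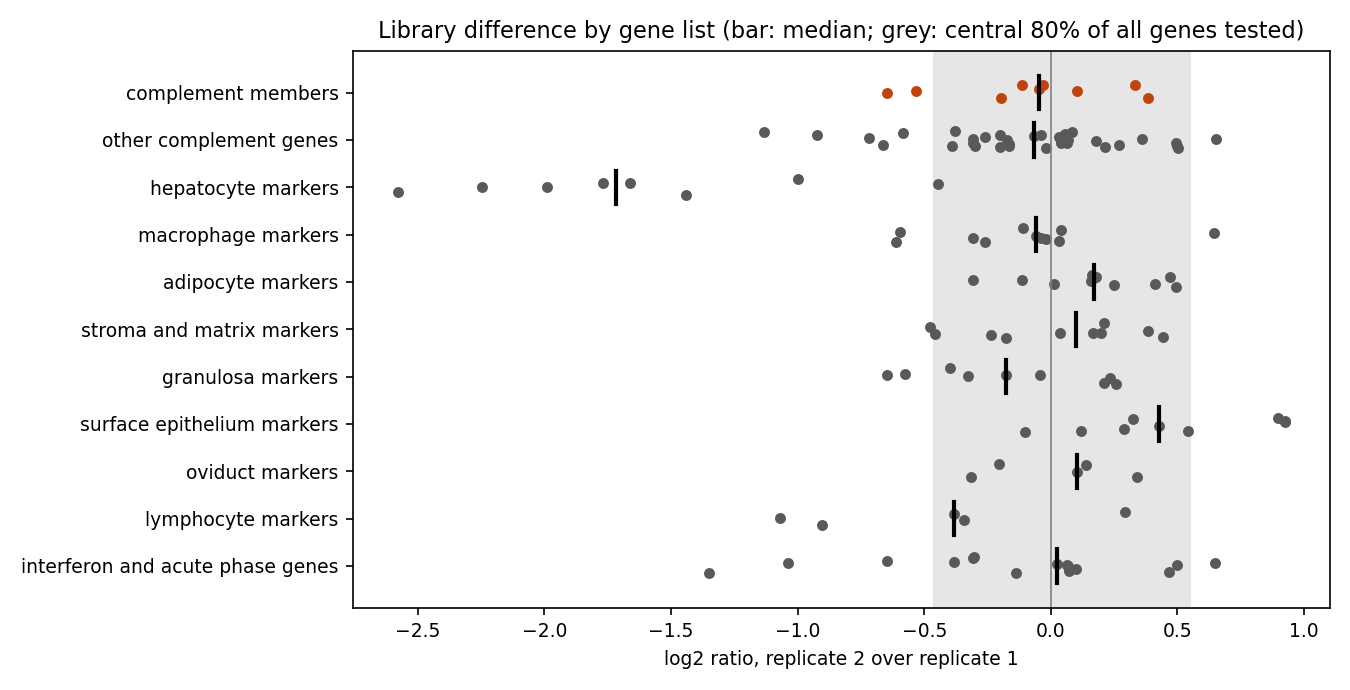
Log2 ratio of replicate 2 over replicate 1 for each gene tested, by list, with the list's median as a bar and the span from −0.46 to 0.55 in grey. Hepatocyte markers lie left of 0, with a median of −1.72, while the 9 complement genes lie on both sides, with a median of −0.045; under spike-in scaling the median of all genes moves to −0.44 and all 9 lie left of 0.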

How the data were processed

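RNA from ovary was measured by stranded sequencing of 76-base read pairs in 2 libraries. Expected counts, as deposited, estimate how many read pairs came from each gene; they were rounded here before testing. The authors deposited TPM per gene and transcript, scaled to a fixed total per library with spike-ins included, and the percent of the gene's TPM that each transcript takes. The deposited FPKM values served as an alternative for the levels, rescaled to the total of TPM. The tables are on mm10 with GENCODE M4, per the file headers and notes; the aligner, quantifier and strand setting were not given in the sources used here. Symbols and coordinates are those of GENCODE M21 on GRCm38, which matched 42462 of 43346 gene identifiers.

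TMM factors from edgeR 4.0.16, run in R 4.3.3, set the library sizes. With 1 library on each side edgeR has no residual degrees of freedom, so each gene with a mean count of at least 20 was compared by a two-sided exact binomial test in scipy 1.17.1, with Benjamini-Hochberg adjustment over 15939 genes and a threshold of 0.05. The log2 ratios are replicate 2 over replicate 1 with a prior count of 1. The procedure was run on simulated counts that varied by counting error only. The binomial test assumes that same setting, so the simulation says nothing about spread beyond counting error. Spike-ins, 0.986% of counts in replicate 2 and 0.764% in replicate 1, were left out of library sizes, as were 26249 phiX and numeric rows with 0 counts.

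Alternatives were DESeq2 1.42.0 size factors, spike-in totals, total counts, other filters, posterior mean counts, Bonferroni adjustment, other pseudocounts on TPM and single libraries; levels over transcripts longer than 1000 bases were added after the data were seen. Gene lists cover the other complement genes and markers of hepatocyte, macrophage, adipocyte, stroma and matrix, granulosa, surface epithelium, oviduct and lymphocyte cells, and interferon and acute phase genes. Named were the 9 genes, their near copies, other complement genes at a mean of 10 TPM or more or at 0, the 3 highest genes of each marker list and the 3 genes nearest to C3 in level. Not every gene this rule covers is reported here. The 9 genes and all lists were chosen with earlier results of these data known. Tables of splice junctions and contigs, on the older build mm9, were not used here.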

Additional observations from a re-analysis of the deposited data

How the results depend on the processing

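With Bonferroni adjustment 4 of the 9 genes passed the exact binomial test, against 7, and 8 other complement genes passed, against 19. Under spike-in scaling the log2 ratios of C3, C4b and Cd55 changed sign, to −0.05, −0.33 and −0.10 (adjusted p = 0.000127, 6.46e-26 and 0.186, exact binomial test), and 1 of the 9 genes, C1s1, differed over 2-fold, against 0. The cause was not tested. Over coding transcripts longer than 1000 bases the mean level was 25.7 TPM for C1s1, 39.0 TPM for C2, 31.0 TPM for C4b, 232 TPM for Serping1 and 10.9 TPM for Cd55; transcripts of any type over that length gave the same means for C1s1, C2, C4b and Serping1. These means fall by construction, since fewer transcripts are summed. DESeq2 size factors, other count filters and posterior mean counts kept the number of the 9 genes that passed at 7. Total-count scaling also gave 7, but there C2 passed and C4b did not. Single libraries give levels and no test. No paired analysis was possible because the labels give 1 group only.

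Cfi and the terminal pathway genes have few counts, so counting error limits them. The split between C4b and C4a, C1ra and C1rb, C2, Cfb and Gm20547, and among the transcripts of C1s1 and of Cfb, is an estimate from shared reads. With 2 libraries that cite the same donor record, no value here describes variation between animals.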

Other observations

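Interferon-induced and acute phase genes, a list that holds known inducers and companions of complement genes, were mixed between the libraries. Of 16 genes, 14 were at 1 TPM or more in both. Cebpb, a transcription factor of the acute phase response, led with 1290 TPM in replicate 2 and 972 TPM in replicate 1, followed by B2m (276 and 279 TPM) and Lcn2 (250.3 and 186 TPM). Of 15 tested by the exact binomial test, 6 were higher and 6 were lower in replicate 2, or 2 and 12 under spike-in scaling, against 29.1% and 27.0%, or 7.16% and 71.7%, of all genes. No relation of these genes to the complement genes was tested.

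Lymphocyte markers had a median level of 0.922 TPM. Of 8, 4 were at 1 TPM or more in both libraries, and the list summed to 32.25 TPM in replicate 2 and 56.4 TPM in replicate 1. Ighm, the heavy chain of IgM, led with 23.4 and 47.0 TPM, before Lck (3.06 and 3.99 TPM) and Nkg7 (3.57 and 3.07 TPM). Of 5 tested, 0 were higher and 2 were lower in replicate 2 by the exact binomial test, or 4 lower under spike-in scaling.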
